A study of Mus musculus with 12 samples.

Results

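The genes of glucose uptake, glycolysis, lactate handling and the response to low oxygen were followed through 4 groups of cultures of Ocy454, a mouse cell line used as a model of osteocytes. The set held 39 named genes of 35214 genes in the data: 2 glucose transporters, 11 genes of upper glycolysis, 6 of lower glycolysis, 6 of lactate and pyruvate handling, 11 targets of hypoxia-inducible factor (HIF) and 3 genes of HIF itself and of oxygen sensing. They are a list of gene names drawn up for their roles, with earlier results of these data known, and all 39 passed the filter on low counts that 12542 genes passed. The cultures had differentiated for 5 days at 37 °C, were pretreated for 1 h with BGJ398 at 200 nM or with its vehicle DMSO, and received fibroblast growth factor 2 (FGF2) at 2 ng/mL or medium without it for 48 h, so that RNA was taken on differentiation day 7. BGJ398 is a small molecule that blocks the kinases of the FGF receptors. The 4 groups of 3 libraries each are called DMSO, DMSO+FGF2, BGJ398 and BGJ398+FGF2, all of the same line and without a genetic change named in the labels. The labels speak of triplicates and not of separate cultures or days, so the p-values rest on a variation among triplicate libraries that could be technical in part.

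Glycolysis splits glucose into pyruvate and yields ATP without oxygen, and lactate dehydrogenase turns pyruvate into lactate so that the pathway can go on. HIF is a transcription factor whose alpha subunit is made all the time and is destroyed when oxygen lets the prolyl hydroxylases of the Egln family mark it. When it is stable, it binds short DNA elements near its targets, which include most glycolytic enzymes, the transporter Slc2a1, the acid-handling enzyme Car9 and the hydroxylases themselves. Bone cells of the osteoblast and osteocyte lineage take up much glucose and turn much of it into lactate, and osteocytes lie inside mineral where oxygen is low. These are background statements, and the oxygen level, the HIF protein and lactate were not measured here.

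The libraries held 18951710 to 27716975 reads assigned by the authors' quantification. Of the markers checked, the 10 osteoblast genes were all above the filter. Among 7 osteocyte genes only Pdpn, Phex and Irx5 were, and Sost and Mepe, which define late osteocytes, were at 0 in all 12 libraries. Of 5 endothelial, 7 muscle and 6 adipocyte markers, 0, 2 and 2 were above the filter, and Adipoq, Myod1 and Myog were at 0. The sum of the 6 macrophage markers was 5.36 to 5.56 CPM (reads per 1e+06 reads of the library) in DMSO and 8.66 to 10.9 CPM in DMSO+FGF2, while Adgre1 was at 0 and Ptprc at or near 0 in all groups. Of the 4 that were tested 1 passed as higher, where 7.57% of all genes tested did. The log2 fold changes of the 4 were positive for 2 and negative for 2. For the 7 chondrocyte markers the DMSO libraries summed to 20.8 to 22.9 CPM and the DMSO+FGF2 libraries to 27.1 to 28.6 CPM, where Sox9 rose, Matn3 fell, and Comp and Col2a1 did not pass. Of these 4 tested markers 1 had a positive log2 fold change and 3 a negative one, with a median of −0.78, although the sum was higher. For the 6 adipocyte markers the DMSO and DMSO+FGF2 sums were 24.6 to 26.0 and 18.5 to 20.5 CPM, and neither tested marker passed. For the osteoblast markers they were 19900 to 21100 and 13200 to 15400 CPM. Of these 10 genes 9 passed as lower and 1 as higher with FGF2 in DMSO (edgeR, adjusted p under 0.05). Of all genes tested 5.82% passed as lower and 7.57% as higher. The median log2 fold change of the 10 genes was −0.97. With BGJ398 and FGF2 together the chondrocyte, adipocyte, macrophage and osteoblast sums were 21.2 to 26.1, 18.9 to 28.4, 5.61 to 7.32 and 20600 to 23000 CPM. In these bulk samples fewer cells of a type and less RNA per cell cannot be told apart, and the part of these shifts in the results below was not tested. DMSO+FGF2 replicate 2, BGJ398 replicate 1 and BGJ398+FGF2 replicate 2 deviated together from their groups along an axis that held 42.8% of the within-group variance. They were at 0.35, 0.39 and 0.61 on it. BGJ398+FGF2 replicates 1 and 3, at −0.29 and −0.33 on the other side, were not set apart. The mean of the 39 genes in the libraries set apart was 0.07, 0.12 and 0.09 above their group means on the log2 scale. The axis was pointed to the side where this mean was high, so the sign of these values was largely fixed beforehand.

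The 39 genes together took 1.70%, 1.85% and 1.67% of the reads in the DMSO libraries. The share was 2.30%, 2.67% and 2.55% with FGF2, 1.68%, 1.46% and 1.37% with BGJ398, and 1.54%, 1.86% and 1.53% with both. The DMSO+FGF2 libraries thus lay above all others, and the groups with BGJ398 overlapped the DMSO group. TPM, the deposited length-corrected share of transcripts, let levels be compared between genes. In DMSO they ran from 0.422 for Aldoc to 5225 for Gapdh, with 16 genes above 100 TPM and 8 below 10 TPM. Summed over lower glycolysis they were 11400 ± 562 TPM (SD, n = 3) in DMSO, 16500 ± 1130 in DMSO+FGF2, 9960 ± 837 in BGJ398 and 10800 ± 932 in BGJ398+FGF2. For the 11 HIF targets the sums were 1180 ± 99.7, 1880 ± 171, 965 ± 60.8 and 1090 ± 22.4 TPM in the same order. Of the 39 genes, 34 had their highest mean CPM in DMSO+FGF2 and 30 their lowest in BGJ398.

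**Figure D1:**
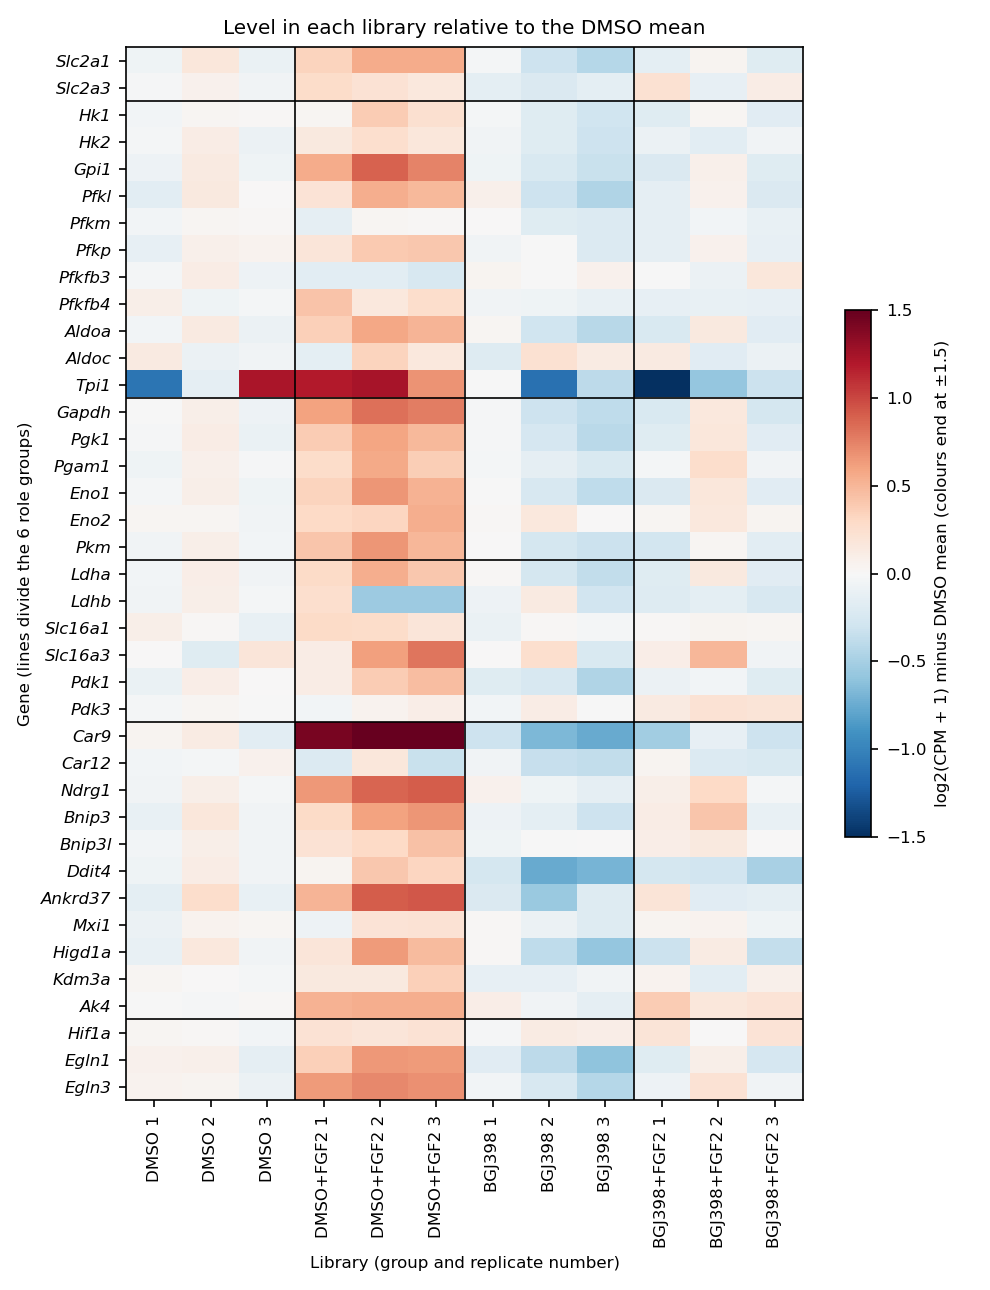
Level of each of the 39 genes (rows, divided by lines into the 6 role groups) in each of the 12 libraries (columns), as log2(CPM + 1) minus the mean of the 3 DMSO libraries, with colours ending at ±1.5. The 3 DMSO+FGF2 columns are mostly red, with Car9 the darkest of the HIF targets, and the BGJ398 columns are mostly pale blue.

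The first step asked what FGF2 changed with its receptors free. Of the 39 genes 24 rose and 0 fell, where 7.57% of all genes tested rose and 5.82% fell. The median log2 fold change of the 39 genes was 0.42, and that of all tested genes was −0.00. At an unadjusted p under 0.05 there were 30 genes higher and 1 lower. DESeq2 called 25 genes and limma-voom 24, the same 24 among them. The called changes ran from 0.21 on the log2 scale for Hif1a to 1.52 for Car9, and 6 of the 24 were larger than 1.5-fold. The count was 14 without DMSO replicate 3, 15 without DMSO+FGF2 replicate 2, 15 from length-scaled TPM and 26 without the 3 libraries that deviated together. In these settings 4.52%, 4.76%, 5.05% and 10.9% of all genes tested rose. Of the 24 calls, 9 held in all 20 alternative settings. Those 9 were Slc2a1, Gpi1, Gapdh, Eno1, Pkm, Car9, Ndrg1, Egln1 and Egln3.

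Glucose entry came first. Slc2a1 (ENSMUSG00000028645) encodes GLUT1, the main glucose transporter of most cells. It was at 156, 183 and 152 CPM in DMSO and at 207, 240 and 241 CPM in DMSO+FGF2, so that the groups did not overlap. It rose by 0.48 ± 0.11 on the log2 scale (SE; edgeR, adjusted p = 0.00756). Slc2a3, which encodes the high-affinity transporter GLUT3, was at 5.03 ± 0.223 TPM against 95.2 ± 10.4 TPM for Slc2a1 in DMSO (SD, n = 3). Its log2 fold change was 0.24 ± 0.10 (SE), with an adjusted p of 0.161, and it did not pass the test.

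Of the 11 genes of upper glycolysis, which bring glucose to triose phosphates, 5 rose. The largest of these changes was in Gpi1 (ENSMUSG00000036427), the isomerase that turns glucose 6-phosphate into fructose 6-phosphate. Its libraries were at 408, 476 and 415 CPM in DMSO and at 635, 797 and 727 CPM in DMSO+FGF2, well apart. The rise was 1.66-fold, or 0.73 ± 0.10 on the log2 scale (SE, adjusted p = 0.000325). The aldolase gene Aldoa rose by 0.48 ± 0.12, from a mean of 1348 to 1883 CPM. Among the phosphofructokinase genes, whose enzyme sets the pace of the pathway, Pfkl and Pfkp rose and Pfkm did not pass the test. Pfkl was at 437, 537 and 490 CPM in DMSO and at 561, 712 and 683 CPM with FGF2, a change of 0.42 ± 0.13 with an adjusted p of 0.0482 that was lost in 10 of the 20 alternative settings. Pfkp changed by 0.33 ± 0.09. Pfkm had a log2 fold change of −0.03, with a 95% interval of −0.18 to 0.12.

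The bifunctional enzymes Pfkfb3 and Pfkfb4, which make the activator of phosphofructokinase, had changes of opposite sign. Pfkfb4 was at 16.8, 14.99 and 15.4 CPM in DMSO and at 21.5, 17.7 and 19.1 CPM with FGF2, and rose by 0.30 ± 0.08 (SE, adjusted p = 0.0267). Pfkfb3 was at 35.7, 39.6 and 34.6 CPM in DMSO and at 32.8, 32.7 and 30.7 CPM with FGF2, so its 3 treated libraries lay below all controls. Its log2 fold change of −0.19 ± 0.08 did not pass the test (adjusted p = 0.126), and the difference between the changes of these genes was not tested. The hexokinases Hk1 and Hk2, which trap glucose by phosphorylation, had log2 fold changes of 0.22 ± 0.09 and 0.19 ± 0.07 and adjusted p-values of 0.129 and 0.111. Aldoc, a second aldolase, had only 107 reads over the 12 libraries and a change of 0.43 ± 0.53.

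In lower glycolysis, which yields ATP and pyruvate, all 6 genes rose. Gapdh (ENSMUSG00000057666), the glyceraldehyde 3-phosphate dehydrogenase often used as a reference gene, was at 3625, 3877 and 3443 CPM in DMSO and at 5545, 6481 and 6184 CPM in DMSO+FGF2. This was a rise of 0.73 ± 0.11 (SE, adjusted p = 0.000731). Each of the 3 treated libraries was above the highest control by more than the range of the controls. Pgk1, the first enzyme of the pathway to make ATP, was at 1646, 1808 and 1557 CPM and at 2166, 2514 and 2343 CPM, and rose by 0.49 ± 0.11. The mutase gene Pgam1 rose by 0.41 ± 0.09. The enolase genes Eno1 and Eno2 rose by 0.51 ± 0.11 and 0.40 ± 0.07, the former from 1471 ± 67.4 to 1989 ± 185 TPM and the latter from 53.4 ± 4.26 to 58.5 ± 10.3 TPM (SD, n = 3). Of the Eno2 reads 40.8% were in a transcript annotated as a retained intron, and the Eno2 call was lost in length-scaled TPM (adjusted p = 0.302). Pkm, the pyruvate kinase, was at 2310, 2541 and 2320 CPM in DMSO and at 3186, 3774 and 3362 CPM with FGF2, a rise of 0.53 ± 0.10 with an adjusted p of 0.00255.

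Around lactate and pyruvate 3 of 6 genes rose. Ldha, the subunit of lactate dehydrogenase that favours lactate, was at 1773, 1956 and 1755 CPM in DMSO and at 2229, 2669 and 2426 CPM with FGF2. It rose by 0.42 ± 0.11 (SE, adjusted p = 0.0209). Slc16a1, the lactate carrier MCT1, rose by 0.25 ± 0.06, and Pdk1, a kinase that keeps pyruvate out of the mitochondrial cycle, by 0.32 ± 0.09. The carrier Slc16a3, known as MCT4 and as a HIF target, was much scarcer, at 2.27 ± 0.698 TPM in DMSO. It was at 1.97, 1.60 and 2.35 CPM in DMSO and at 2.19, 3.54 and 4.14 CPM with FGF2, with overlap, and its change of 0.73 ± 0.29 did not pass (adjusted p = 0.115). Pdk3, another kinase of pyruvate dehydrogenase, had a log2 fold change of 0.04, with a 95% interval of −0.10 to 0.18. Ldhb, the other lactate dehydrogenase subunit, had 94 reads in all and was at 0 in 2 of the 3 DMSO+FGF2 libraries.

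The largest changes were among the HIF targets, of which 6 of 11 rose. Car9 (ENSMUSG00000028463), a carbonic anhydrase on the cell surface that handles the acid of glycolysis, was at 227, 241 and 198 CPM in DMSO and at 593, 662 and 650 CPM in DMSO+FGF2. The log2 change was 1.52 ± 0.12 (SE, adjusted p = 2.94e-06), and it stayed between 1.44 and 1.58 in the 20 alternative settings. Ndrg1, a gene of stress and differentiation, was at 143, 157 and 145 CPM and at 233, 273 and 280 CPM, a rise of 0.82 ± 0.09 (adjusted p = 4.39e-05). Ankrd37, a small ankyrin-repeat protein used in hypoxia signatures, was at 2.48, 3.59 and 2.54 CPM in DMSO and at 4.45, 6.22 and 6.33 CPM with FGF2. Its rise of 0.97 ± 0.22 had an adjusted p of 0.00903, on 906 reads in all, and 21.4% of its 31-base sequences also occur in other genes. The kinase gene Ak4, which keeps up the balance of adenine nucleotides in mitochondria, was at 14.1, 13.9 and 14.2 CPM and at 20.6, 21.01 and 20.9 CPM. The libraries of each group lay close together, and the rise was 0.57 ± 0.08 (adjusted p = 0.000559), though the call was lost in length-scaled TPM (adjusted p = 0.159).

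Bnip3 and Bnip3l, which mark mitochondria for removal, rose by 0.52 ± 0.13 and 0.32 ± 0.06. The other 5 targets did not pass. Kdm3a, a histone demethylase, and Higd1a, a mitochondrial protein, had changes of 0.22 ± 0.07 and 0.44 ± 0.16, with adjusted p-values of 0.0546 and 0.0921. Ddit4, also called REDD1, which restrains mTOR, changed by 0.26 ± 0.12 and the repressor Mxi1 by 0.12 ± 0.08. Car12, a second surface carbonic anhydrase, was at only 1.04 ± 0.0619 TPM in DMSO against 238 ± 27.3 TPM for Car9 (SD, n = 3), and had a change of −0.16 ± 0.25.

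The 3 genes of HIF and oxygen sensing all rose, by unequal amounts. Hif1a, the regulated subunit, was at 230, 229 and 219 CPM in DMSO and at 263, 256 and 264 CPM with FGF2. That rise of 0.21 ± 0.06 (SE, adjusted p = 0.0343) was the smallest of the 24 and was lost in 8 of the 20 alternative settings. Among these was every fit that left out a DMSO or a DMSO+FGF2 library. Egln1, the hydroxylase that marks HIF in normal oxygen, was at 287, 290 and 251 CPM and at 354, 434 and 430 CPM, a rise of 0.56 ± 0.12. Egln3, a hydroxylase that is itself a HIF target, was at 5.36, 5.30 and 4.77 CPM and at 8.55, 9.12 and 8.90 CPM, a rise of 0.78 ± 0.13 (adjusted p = 0.00155). On the TPM scale Egln3 was at 3.37 ± 0.23 and Egln1 at 108 ± 9.29 in DMSO (SD, n = 3).

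**Figure D2:**
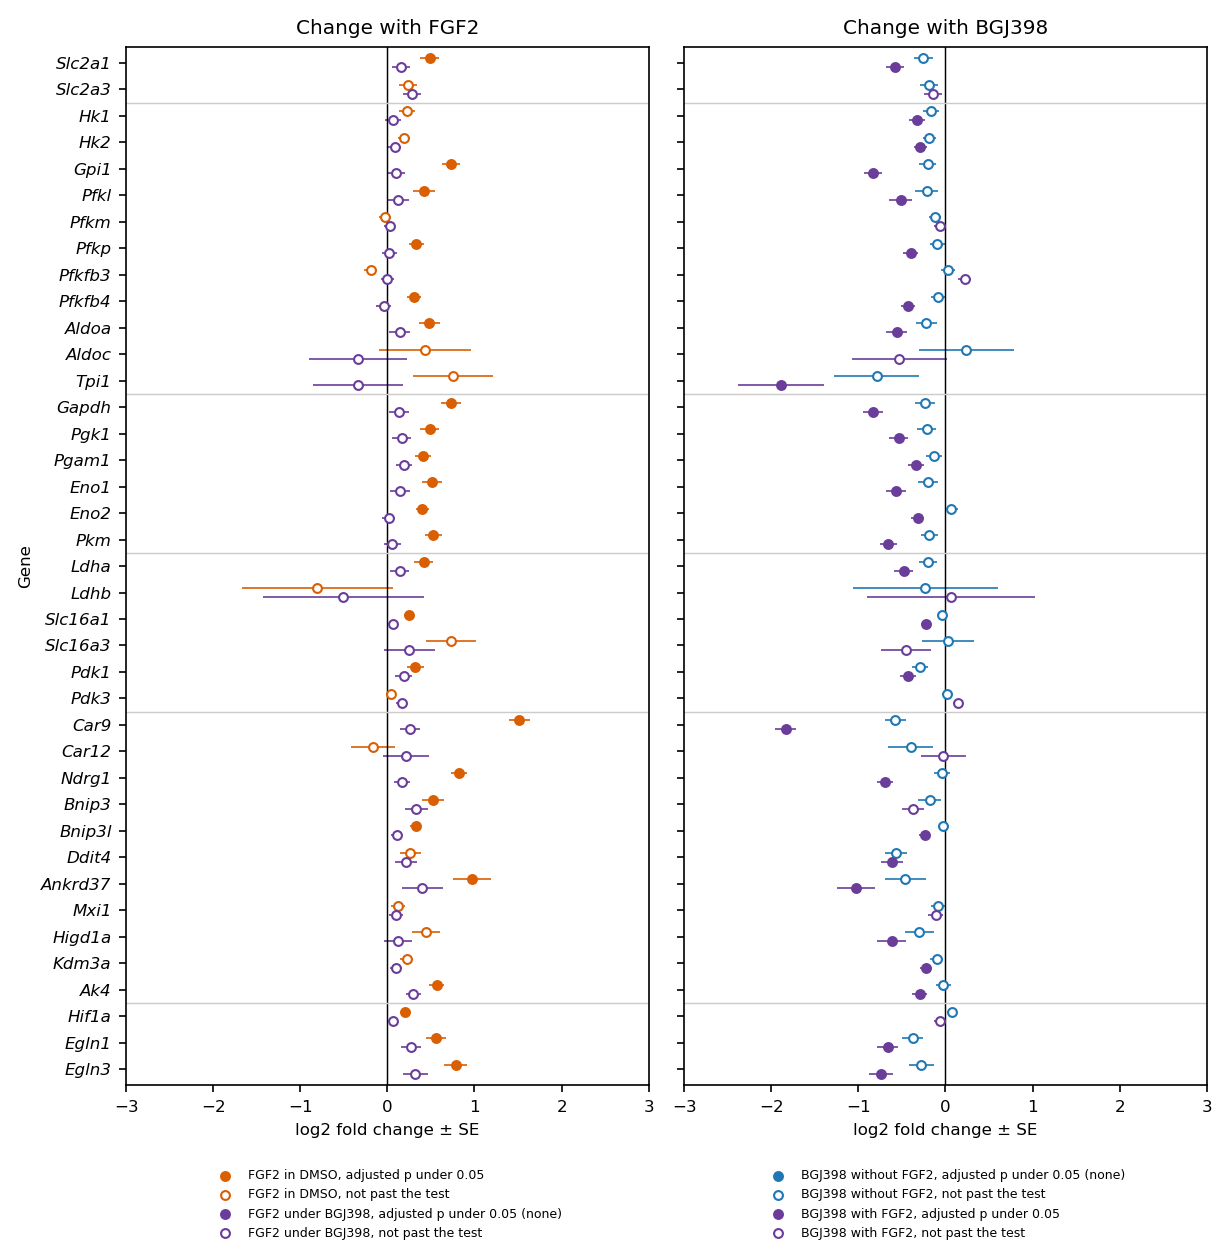
Log2 fold change ± SE of the 39 genes with FGF2 (left) and with BGJ398 (right), each without and with the other agent. Filled points passed an adjusted p of 0.05 in edgeR. On the left the filled points are the 24 genes that rose with FGF2 in DMSO, and on the right the 28 that fell with BGJ398 in the presence of FGF2.

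The promoters of the genes are shown because HIF is known to bind a short core. RefSeq gives the sequence before the start of 36 of the 39 genes (build GRCm38.p6), and Slc2a3, Ndrg1 and Bnip3l have no entry in that table. The 250 bases before the first start listed for each gene were searched for the core ACGTG or GCGTG on both strands, where CACGTG counts as 2 overlapping matches. The core was in 28 of the 36 windows, or 77.8%, and in 38.6% of the windows of 27025 genes. The set was listed in part for its known HIF targets, so a high share in it says nothing of FGF2. The latter include genes that did not pass the count filter, which all of the 36 did. The share among the tested genes alone was not counted. The 36 windows had a median of 61.6% G and C and all windows one of 52.0%, and the part of this in the difference was not tested. By outcome, 18 of the 22 genes with a window that rose with FGF2 held a core, and so did 10 of the 14 that did not pass. Below are 6 windows, written 5′ to 3′ on the gene's strand up to the base before the start, with each match in capitals: 2 genes with the largest changes, 2 glycolytic enzymes with several matches, and 2 for contrast, Gpi1, which rose without a match, and Pfkfb3, which holds a match and did not pass the test.
Car9: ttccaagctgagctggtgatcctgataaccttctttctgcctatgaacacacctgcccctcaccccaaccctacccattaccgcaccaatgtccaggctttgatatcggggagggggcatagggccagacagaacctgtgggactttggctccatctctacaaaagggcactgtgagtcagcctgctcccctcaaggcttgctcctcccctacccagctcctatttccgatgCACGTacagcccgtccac
Ankrd37: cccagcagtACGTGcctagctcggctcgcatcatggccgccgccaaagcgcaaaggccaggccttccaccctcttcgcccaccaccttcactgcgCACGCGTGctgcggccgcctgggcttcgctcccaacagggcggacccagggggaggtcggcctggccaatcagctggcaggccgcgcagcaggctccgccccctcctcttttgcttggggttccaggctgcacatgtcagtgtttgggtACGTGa
Ldha: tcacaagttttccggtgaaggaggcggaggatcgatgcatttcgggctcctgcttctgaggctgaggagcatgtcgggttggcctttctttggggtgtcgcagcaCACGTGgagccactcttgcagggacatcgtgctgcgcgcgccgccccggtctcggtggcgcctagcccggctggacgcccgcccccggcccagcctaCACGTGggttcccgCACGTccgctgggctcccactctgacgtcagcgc
Pgk1: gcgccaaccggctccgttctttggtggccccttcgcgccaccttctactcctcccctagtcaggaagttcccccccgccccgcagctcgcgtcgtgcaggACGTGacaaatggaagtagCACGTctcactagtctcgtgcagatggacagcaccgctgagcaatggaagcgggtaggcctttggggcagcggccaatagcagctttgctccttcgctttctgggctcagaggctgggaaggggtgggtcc
Gpi1: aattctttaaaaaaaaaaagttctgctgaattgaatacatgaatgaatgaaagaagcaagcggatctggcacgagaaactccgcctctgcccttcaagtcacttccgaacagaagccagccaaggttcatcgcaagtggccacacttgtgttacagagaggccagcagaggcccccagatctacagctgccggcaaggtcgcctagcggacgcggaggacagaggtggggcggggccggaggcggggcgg
Pfkfb3: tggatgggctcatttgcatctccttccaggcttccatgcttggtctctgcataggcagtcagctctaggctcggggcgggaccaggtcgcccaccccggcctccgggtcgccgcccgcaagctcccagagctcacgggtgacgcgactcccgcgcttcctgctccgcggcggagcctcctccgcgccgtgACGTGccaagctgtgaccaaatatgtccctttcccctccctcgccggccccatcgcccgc

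Car9 has 1 core, 13 bases before the start, on chromosome 4 (chr4:43506776-43507025, plus strand). The Ankrd37 window (chr8:45999851-46000100, minus strand) has 4, the nearest 1 base before the start. The window of Ldha (chr7:46845554-46845803, plus strand) has 5 and that of Pgk1 (chrX:106186850-106187099, plus strand) has 2. None is in the Gpi1 window (chr7:34230337-34230586, minus strand), and 1 is in that of Pfkfb3 (chr2:11553930-11554179, minus strand). A match is a run of letters and says nothing of binding, and a window without one says only that these letters are not in these 250 bases.

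The second step asked what FGF2 did when its receptors were inhibited. None of the 39 genes passed the test in edgeR, and 0 of all genes tested passed it in either direction. At an unadjusted p under 0.05 there were 7 genes higher and 0 lower, and 0 genes of the set passed by DESeq2, by limma-voom or without the 3 libraries that deviated together. The median log2 fold change was 0.13, and 34 of the 39 values were positive. For 6 genes the 3 BGJ398+FGF2 libraries were all above the 3 BGJ398 libraries, and for 0 genes all below, against 3.44% and 2.88% of all genes. These were Slc2a3, Pdk1, Pdk3, Bnip3l, Ankrd37 and Ak4.

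Ak4 was at 15.2, 13.6 and 12.7 CPM with BGJ398 and at 18.7, 15.9 and 16.3 CPM with both agents, a log2 fold change of 0.30 ± 0.09 (SE, edgeR unadjusted p = 0.00435, adjusted p = 1). Car9 was at 178, 139 and 130 CPM and at 154, 203 and 179 CPM, with overlap. Its change was 0.26 ± 0.12, and it had been 1.52 in DMSO. Gapdh was at 3586, 2948 and 2790 CPM with BGJ398 and at 3113, 4071 and 3037 CPM with both, where 1 library, BGJ398+FGF2 replicate 2, stood above the others. Its change was 0.13 with a 95% interval of −0.13 to 0.40. Pfkfb3 had a change of −0.00 with an interval of −0.18 to 0.18.

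The difference between the 2 responses to FGF2 was itself tested, as the change under BGJ398 minus the change in DMSO. It was negative for 33 of the 39 genes, and 3 passed, all negative, where 2.25% of all genes passed as negative and 1.99% as positive. At an unadjusted p under 0.05 there were 14 negative and 0 positive. Car9 had a difference of −1.26 ± 0.17 (SE, edgeR adjusted p = 0.00085), Ndrg1 one of −0.65 ± 0.13 (adjusted p = 0.00972) and Gpi1 one of −0.63 ± 0.14 (adjusted p = 0.0246). The Car9 and Ndrg1 calls held in all 20 alternative settings, and that of Gpi1 in 11. Gapdh, at −0.60 ± 0.16 with an adjusted p of 0.0538, missed the threshold. It passed without the 3 libraries that deviated together (adjusted p = 0.000151). Without those libraries, or without BGJ398+FGF2 replicate 2 alone, the same 7 genes passed: Car9, Ndrg1, Gpi1, Gapdh, Eno1, Eno2 and Pkm. The shares of all genes rose as well. Without those libraries 4.26% passed as negative and 3.96% as positive, and without BGJ398+FGF2 replicate 2 alone 3.97% and 3.57%. For the other genes of the set a different response under BGJ398 was not shown. Hif1a had a difference of −0.14 with a 95% interval of −0.33 to 0.05.

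**Figure D3:**
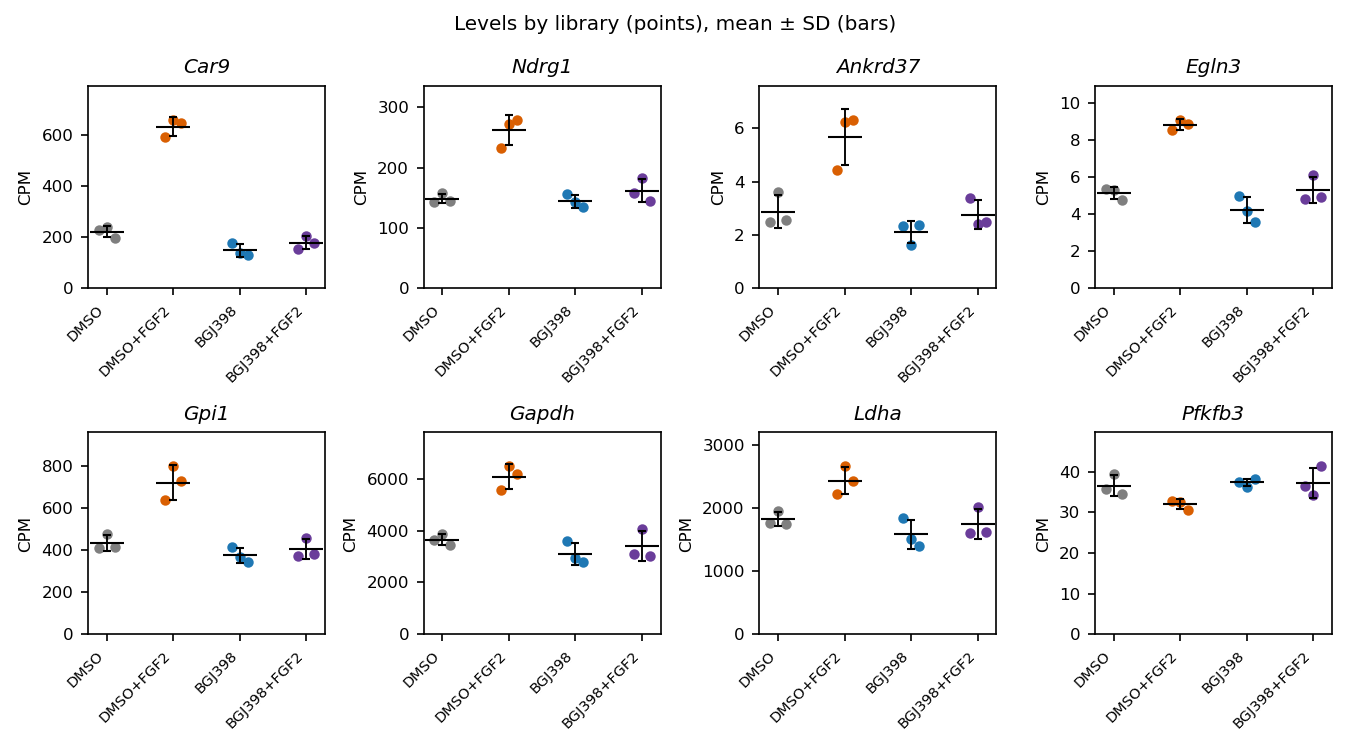
CPM of 8 genes in each library (points), with the mean and SD of the 3 libraries of each group (bars), each panel starting at 0. For Car9, Ndrg1, Ankrd37, Egln3, Gpi1, Gapdh and Ldha the DMSO+FGF2 libraries lie above all others, and for Pfkfb3 they lie below all others.

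The third step looked at the inhibitor alone. With BGJ398 and no FGF2, 0 of the 39 genes passed in edgeR, where 0.151% of all genes rose and 0.175% fell. At an unadjusted p under 0.05 there were 0 genes higher and 6 lower, with 2 lower by DESeq2, Car9 and Ddit4, and 0 by limma-voom. The median log2 fold change was −0.19, and that of all genes was 0.00. For 8 genes the BGJ398 libraries were all below the DMSO libraries and for 0 all above, against 8.08% and 9.11% of all genes. The 8 were Slc2a3, Pdk1, Car9, Car12, Ddit4, Ankrd37, Kdm3a and Egln1.

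Car9 went from 227, 241 and 198 CPM in DMSO to 178, 139 and 130 CPM, a log2 fold change of −0.58 ± 0.12 (SE, edgeR adjusted p = 0.0709). Ddit4 was at 92.2, 104 and 93.3 CPM in DMSO and at 80.3, 56.7 and 59.1 CPM with BGJ398, a change of −0.56 ± 0.12 (adjusted p = 0.0921). BGJ398 replicate 1 was the highest of its group for both genes. Without that library both genes passed, and without BGJ398+FGF2 replicate 2 Car9 did. Without all 3 libraries that deviated together 18 of the 39 genes fell and 0 rose, where 3.72% of the 12616 genes then tested fell and 2.07% rose. In that setting BGJ398 and DMSO were compared with 2 and 3 libraries, Car9 fell by 0.72 and Ddit4 by 0.74 on the log2 scale, and Gapdh by 0.35. Egln1 fell by 0.50 there, and Hif1a and Egln3 did not pass. The libraries were chosen after the data were seen, from the side of the axis where the mean of the 39 genes was high. BGJ398 replicate 1, the library left out of the BGJ398 group, was 0.12 above its group in that mean. Its removal lowers the BGJ398 level of the set, so the count of 18 is not independent of the choice.

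The last comparison set BGJ398 against DMSO in the presence of FGF2. It shares its DMSO+FGF2 libraries with the first, so the 2 sets of values are not independent. Of the 39 genes 28 fell and 0 rose, where 11.4% of all genes fell and 10.8% rose, and the median log2 fold change was −0.43. At an unadjusted p under 0.05 there were 29 lower and 2 higher, and DESeq2 and limma-voom each called 29 genes, the same 28 among them. Without the 3 libraries that deviated together 28 fell and 1 rose, where 15.4% of all genes then tested fell and 13.8% rose. In this comparison 16 of the 28 calls held in all 20 alternative settings. Car9 went from 593, 662 and 650 CPM to 154, 203 and 179 CPM, a decrease of 3.56-fold with a log2 fold change of −1.83 ± 0.12 (SE, edgeR adjusted p = 3.79e-07). Gpi1 and Gapdh changed by −0.84 ± 0.10 and −0.83 ± 0.11, Egln3 by −0.74 ± 0.14 and Pkm by −0.65 ± 0.10.

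Of the 24 genes that rose with FGF2 in DMSO, 22 were among the 28 here. The 2 others were Bnip3 and Hif1a. Bnip3, at −0.37 ± 0.13 with an adjusted p of 0.0527, lay just outside the threshold and was called lower in 9 of the 20 alternative settings, among them DESeq2 (adjusted p = 0.0161), limma-voom (0.0476) and the replicate block (0.0308), with adjusted p-values from 0.00471 to 0.182 over all 20. Hif1a was at −0.07 ± 0.06 with an adjusted p of 0.455. Hif1a was at 263, 256 and 264 CPM with FGF2 alone and at 258, 228 and 261 CPM with both, with overlap. Another 6 genes fell here without having passed with FGF2: Hk1, Hk2, Ddit4, Higd1a, Kdm3a and Tpi1. Ddit4 was at 99.3, 128 and 120 CPM with FGF2 and at 80.2, 78.9 and 68.5 CPM with both. That change, −0.61 ± 0.12, stands beside −0.56 ± 0.12 without FGF2, and the difference between them was −0.05 with a 95% interval of −0.45 to 0.36. Pfkfb3 and Pdk3 were higher with BGJ398 in all 3 libraries, with log2 fold changes of 0.22 ± 0.08 and 0.14 ± 0.06, and did not pass (adjusted p = 0.0573 and 0.108). Pfkfb3 passed without the 3 libraries that deviated together (0.29 ± 0.08, adjusted p = 0.0177).

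Other genes of the same pathways were read in the same libraries. Their lists were also chosen with earlier results of these data known, so this is not an independent reading. Of 105 genes listed, 86 were tested, and with FGF2 in DMSO 21 rose and 3 fell, beside the 7.57% and 5.82% of all genes given above. Among 34 tested HIF targets outside the set 15 rose and 2 fell. The 2 that fell, named after their values were seen, were the collagen hydroxylase gene P4ha1 (−0.32 ± 0.06) and the histone demethylase gene Kdm4c (−0.19 ± 0.06). Bhlhe40, a transcriptional repressor, was at 161, 180 and 160 CPM in DMSO and at 246, 297 and 303 CPM with FGF2, a rise of 0.76 ± 0.08 (SE, edgeR adjusted p = 2.24e-05). Ero1l, an oxidase of protein folding, rose by 0.72 ± 0.07, the coregulator Pnrc1 by 0.59 ± 0.07 and Bhlhe41, a relative of Bhlhe40, by 0.52 ± 0.07. The differences under BGJ398 passed for Bhlhe40 (−0.48 ± 0.11, adjusted p = 0.0232), Ero1l (−0.51 ± 0.11, adjusted p = 0.013) and Pnrc1 (−0.43 ± 0.10, adjusted p = 0.0266). With FGF2 in DMSO none of 12 tested regulators of HIF passed in either direction in edgeR, and at an unadjusted p under 0.05 there were 2. With BGJ398 in the presence of FGF2 1 of the 12 rose and 0 fell, where 10.8% of all genes tested rose and 11.4% fell. The count of 1 is thus not above the share of all genes. It was Eloc, a subunit of the ubiquitin ligase that removes HIF, named after its value was seen (0.26 ± 0.07, edgeR adjusted p = 0.0221).

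Among 13 tested isoenzymes of glucose transport and glycolysis 2 rose, the transporter gene Slc2a6 by 0.64 ± 0.12 and the D-lactate dehydrogenase Ldhd by 0.66 ± 0.16. Of 15 tested genes of the pentose phosphate and glycogen routes 4 rose. These were Gbe1 and Gys1, which build glycogen, at 0.53 ± 0.09 and 0.53 ± 0.11, and the phosphoglucomutases Pgm1 at 0.49 ± 0.12 and Pgm2 at 0.23 ± 0.06. For the entry of pyruvate into mitochondria, with 12 tested genes, 0 rose and 1 fell. That gene was Pdp1, a phosphatase that activates pyruvate dehydrogenase, which was at 85.0, 82.1 and 79.5 CPM in DMSO and at 69.6, 63.6 and 66.9 CPM with FGF2, a change of −0.30 ± 0.06 (adjusted p = 0.00307). With BGJ398 in the presence of FGF2, 22 of the 86 genes fell and 9 rose, beside 11.4% and 10.8% of all genes, and 5 of those that rose were among the 12 genes of pyruvate entry. These 5, named after their values were seen, were the pyruvate carriers Mpc1 and Mpc2 at 0.24 ± 0.07 and 0.39 ± 0.09, the dehydrogenase subunit Pdha1 at 0.20 ± 0.05, its kinase Pdk4 at 0.39 ± 0.11 and Pdp1 at 0.21 ± 0.06.

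Some of these genes have copies in the genome that share their reads. Of the distinct 31-base sequences of Gapdh 28.1% also occur in other genes, and 12 copies hold at least 20% of them. Those copies took 161912 reads over the 12 libraries, or 14.9% of the 1089087 reads of Gapdh, 136592 of them in the pseudogene Gm10359. With the copies added Gapdh rose with FGF2 by 0.74 ± 0.10 (SE, adjusted p = 0.000289), and its difference under BGJ398 was −0.58 ± 0.14 and passed (adjusted p = 0.0364). Pgk1 shared the most, 54.7%, but its 2 nearest copies had 0 reads. For Pgam1, with 37.1% shared, the copy held 4737 reads beside 312373, and for Eno1, with 28.5% shared, the copies held 315 reads beside 511643. Aldoa shared 16.98% with 10 genes, none of which held 20% of its sequence. With the copies added, the 24 and 28 calls above all held.

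Tpi1, the triose phosphate isomerase, is uncertain in these data. Its gene sum was 149 to 1460 reads per library, at 10.6, 21.6 and 57.1 CPM in DMSO alone, and its most abundant transcript, Tpi1-205 with 1607 bases, had 0 reads in DMSO replicate 1 and BGJ398+FGF2 replicate 1 and 1286 in DMSO replicate 3. The most abundant transcript without a gene name in the annotation used, ENSMUST00000239432.2 with 1601 bases, held 25474 to 57933 reads per library. That transcript is not named in the sources used here and entered no gene sum. Whether it belongs to Tpi1 was not settled, and if it does, the Tpi1 sums here hold only a small remainder of that gene's reads. It was at 1580 ± 89.2 CPM in DMSO, 2220 ± 242 in DMSO+FGF2, 1420 ± 211 in BGJ398 and 1560 ± 296 in BGJ398+FGF2 (SD, n = 3). The Tpi1 values, −1.89 ± 0.50 with BGJ398 in the presence of FGF2 among them, are given with this limit. Tpi1 is one of the 28 genes counted there, and its call was lost without BGJ398+FGF2 replicate 1.

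Transcripts of 3 genes were compared as shares, without a test. Of the 39 genes, 18 had 2 or more transcripts that each held over 10% of their reads, and only these 3 were compared in pairs. How often the groups separate in the other genes was not counted. Pyruvate kinase comes in an M1 and an M2 form that differ by one of a pair of exclusive exons, and M2 is the form of growing cells. Pkm-201 and Pkm-202 differ in exon 9 of 11, which has 167 bases in both, and the upstream of these exons, that of the M1 form, is in Pkm-202. They also differ in the first exon (282 and 77 bases) and the last (648 and 462 bases), so their shares do not rest on exon 9 alone. Pkm-201, with the downstream exon, held 86.5%, 87.8% and 87.2% of the pair in DMSO, 86.5%, 86.8% and 87.1% with FGF2, 87.0%, 88.7% and 87.9% with BGJ398 and 87.6%, 88.1% and 87.9% with both. The group means of this share ran from 86.8% to 87.9%. Both transcripts had higher levels with FGF2, Pkm-201 at 2050 ± 128 CPM without it and 2940 ± 273 CPM with it, and Pkm-202 at 302 ± 7.96 and 447 ± 38.9 CPM (SD, n = 3).

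Mxi1, whose sum did not pass, has 2 main transcripts with different first and last exons. Mxi1-201 held 45.6%, 45.5% and 47.5% of the pair in DMSO and 54.8%, 52.8% and 51.2% with FGF2, without overlap. No share of such separations over other genes stands beside this. With BGJ398 it held 49.6%, 45.7% and 51.8%, and with both 48.9%, 52.3% and 52.2%, with overlap. Mxi1-201 was at 34.3 ± 2.3 CPM in DMSO and 43.1 ± 3.59 CPM with FGF2, and Mxi1-203 at 39.9 ± 2.38 and 38.5 ± 5.64 CPM (SD, n = 3). In Hk1, the transcript Hk1-201 was at 22.4 ± 8.95 CPM in DMSO and at 49.1 ± 9.45 CPM with FGF2, and Hk1-202 at 157 ± 13.4 and 160 ± 21.1 CPM. The share of Hk1-201 ranged from 3.61% to 18.1% in the BGJ398+FGF2 libraries alone. Splitting reads between transcripts that share most of their sequence is an estimate, and the error of that estimate was not analysed here.

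**Figure D4:**
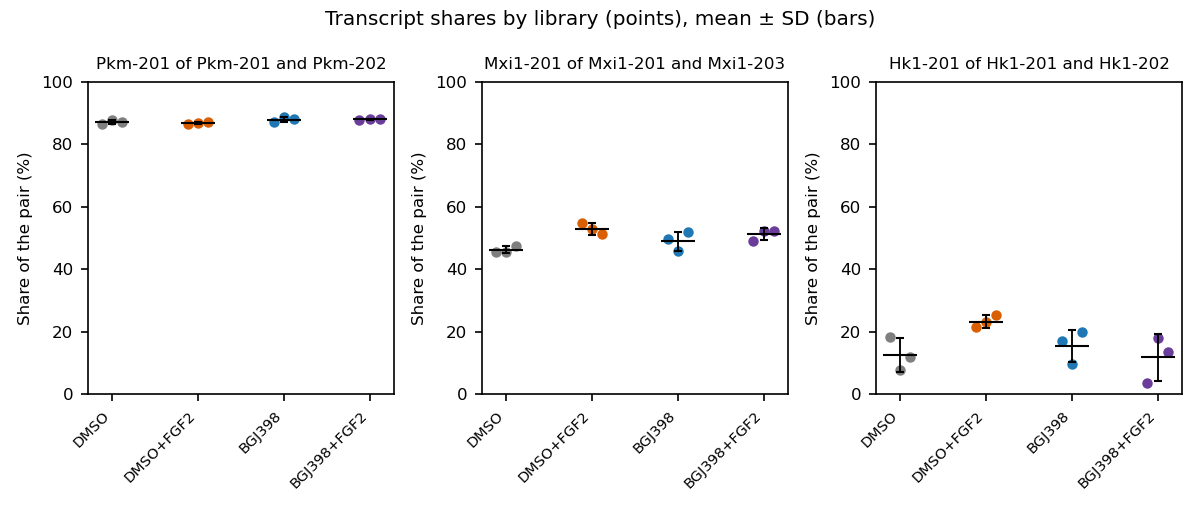
Share (%) of one transcript in a pair for Pkm, Mxi1 and Hk1, in each library (points), with the mean and SD of the 3 libraries of each group (bars). The Pkm-201 share lies between 86.5% and 88.7% in all libraries, and the Mxi1-201 and Hk1-201 shares are higher in all DMSO+FGF2 libraries than in all DMSO libraries. How often shares separate in other genes was not counted.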

How the data were processed

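PolyA RNA of 12 libraries was quantified by the authors with Salmon, and GRCm39 is the build named, both per the submitters' processing notes and without a version. Per the file headers, each file gives expected counts (estimated reads), TPM and an effective length per transcript. Of 116178 transcripts 114656 were matched by identifier to GENCODE M21 genes (GRCm38), and 1522 were left out of the gene sums. The expected counts of a gene's transcripts were added up and rounded to whole numbers, and deposited TPM were added up likewise. Genes were filtered with filterByExpr and tested in one model of the 4 groups with edgeR 4.0.16 (quasi-likelihood, TMM, 8 residual degrees of freedom, biological coefficient of variation 8.49%), in R 4.3.3. A change was called at a Benjamini-Hochberg adjusted p under 0.05 over 12542 genes, and 95% intervals come from the same fit. CPM are TMM-scaled. Alternatives were DESeq2 1.42.0 (size factors, and its Wald test), limma-voom (limma 3.58.1), no count filter, length-scaled TPM, summed copies, a replicate block, and leaving out libraries. Deviations of same-numbered libraries of DMSO+FGF2 and BGJ398+FGF2 were positively correlated (0.204, 0.491 and 0.277), and the labels name no pairs. Deviations within a group balance out, so these correlations are not independent of each other and do not show a pairing. Scripts were tested on simulated counts. The members and lists were chosen with earlier results of these data known. All 39 genes are named, and of each list of other pathway genes up to 4 called genes with the smallest p for FGF2 in DMSO.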

Additional observations from a re-analysis of the deposited data

Results flagged for a closer look

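For 3 genes the change with FGF2 differed between the cultures with and without BGJ398 by the test of the difference itself (edgeR). The difference was −1.26 for Car9, −0.65 for Ndrg1 and −0.63 for Gpi1 on the log2 scale, with adjusted p-values of 0.00085, 0.00972 and 0.0246. The 3 DMSO+FGF2 libraries of each gene lay above the 9 others. Under BGJ398 the changes with FGF2 were 0.26 ± 0.12, 0.17 ± 0.09 and 0.10 ± 0.10 (SE), and none of these passed.

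The most abundant transcript that had no gene name in the annotation used, and so entered no gene sum, had a mean of 2220 CPM in DMSO+FGF2. Its DMSO+FGF2 libraries were at 1990, 2470 and 2210 CPM and its DMSO libraries at 1520, 1680 and 1530 CPM, so the groups did not overlap. This difference was not tested. Whether the transcript belongs to Tpi1, whose own sum was 149 to 1460 reads per library, was not settled.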

How the results depend on the processing

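No direction of a called gene was reversed in any alternative. With FGF2 in DMSO 15 of the 39 genes were called higher from length-scaled TPM. Leaving out 1 library at a time gave 14 to 26 higher (14 without DMSO replicate 3, 15 without DMSO+FGF2 replicate 2), 0 to 1 lower (Ldhb without DMSO+FGF2 replicate 1, on 2 libraries at 0 reads) and 1018 to 2256 genes in all, against 1680. With FGF2 under BGJ398 the genes called were 5 by DESeq2, 6 without the count filter and 0 to 1 leaving out 1 library, none of them of the set. For BGJ398 without FGF2, against 41 genes and 0 of the set, DESeq2 called 153 genes and 2 of the set, no count filter 83 and 3 (Car9, Ddit4 and Egln1), length-scaled TPM 12 genes, and leaving out 1 library 9 to 104 genes and 0 to 2 of the set. For BGJ398 with FGF2, length-scaled TPM called 1812 genes against 2782, and leaving out 1 library gave 0 to 1 higher and 21 to 28 lower of the set. For the difference between the FGF2 responses, against 532 genes and 3 of the set, DESeq2 called 825 and 6, no count filter 6 of the set, length-scaled TPM 347 genes, and leaving out 1 library 328 to 956 genes (328 without DMSO replicate 2, 337 without DMSO replicate 3, 956 without BGJ398+FGF2 replicate 2) and 2 to 7 of the set. An alternative left out the 3 libraries that deviated together, chosen after seeing the data and on the side where the set was high. The 5 comparisons in this order then called 2611, 4, 730, 3691 and 1038 genes. Of the set they called 26 higher, 0, 18 lower, 28 lower with 1 higher, and 7 lower. The cause of these shifts was not tested.

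Replicate numbers are shared between the groups. Only between DMSO+FGF2 and BGJ398+FGF2 were the correlations of deviations positive for all 3 numbers (0.204 to 0.491). Replicate 2 was the library set apart in both of these groups, which can make all 3 positive, so a pairing was not shown. In the other comparisons the correlations were from −0.453 to 0.219. With the replicate number as a block 21 genes were called for BGJ398 without FGF2, and of the set 22, 0, 0, 29 and 4 in the 5 comparisons, with Gapdh (difference between FGF2 responses) and Bnip3 (BGJ398 with FGF2) gained and Pfkl and Hif1a (FGF2 in DMSO) lost. Low depth limits Aldoc, Ldhb, Car12 and Slc16a3, with 94 to 637 reads over all libraries.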
